A study of Mus musculus with 6 samples.

Results

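Replication-dependent histone genes were described in mouse neural stem cell cultures that differ in the genotype label for vimentin, an intermediate filament protein. The genes were chosen by name, as every gene symbol in the deposited isoform table that begins with Hist1h, Hist2h, Hist3h or Hist4h. No measured value entered this rule, but earlier results of these data were known when the genes were chosen. There were 62 such symbols, 51 on chromosome 13, 7 on chromosome 3, 3 on chromosome 11 and 1 on chromosome 6. Of these, 61 had at least 1 isoform that was a reference transcript or overlapped the exons of a named gene, against 27694 genes of this kind in all. The gene left without a value was Hist1h1a, a linker histone gene with run-on isoforms only. The 61 genes held 4 of the H1 class, 16 of H2A, 18 of H2B, 11 of H3 and 12 of H4.

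The cultures were 3 labelled vimentin knockout (KO) and 3 labelled wild type (WT), all of strain C57/Bl6, all untreated and all grown in serum-free medium with FGF-2 and EGF, which keep neural stem cells dividing. The labels give neither the way the knockout was made nor the animals behind the cultures, so p-values reflect the scatter among these libraries alone, some of which may be technical. Ribosomal RNA was removed from total RNA, so RNAs without a poly(A) tail were kept, and strand-specific libraries were read as pairs of 150 bases. Values are FPKM, a level per length of transcript and per depth of the library, as the authors deposited them for each isoform, summed here per gene.

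Depth was between 28.4 and 32.5 M reads in the KO libraries and between 28.9 and 36.2 M reads in the WT libraries. Vim, the gene named by the knockout, had 650, 732 and 624 FPKM in the libraries labelled KO and 191, 179 and 186 FPKM in those labelled WT. Its RNA was thus higher, not lower, under the KO label. Whether the labels are exchanged or the knockout allele leaves RNA was not tested. The WT columns are lettered NT and were matched by elimination, and directions below are those of the libraries as labelled. The 9 neural stem cell markers summed to 1125 to 1189 FPKM in KO and 872 to 1112 FPKM in WT, most of it Fabp7 and Slc1a3. Of the intronless markers, Sox2 was listed at 0, 0 and 0 FPKM in KO and at 53.3, 0 and 28.4 FPKM in WT. Sox1 was listed at 0.215, 0 and 0 FPKM in KO and at 0, 21 and 18.3 FPKM in WT. Microglial markers reached at most 3.36 FPKM in sum, and those of fibroblasts and vessels stayed under 1 FPKM in every library. Markers of glia differed: the 5 of oligodendrocytes summed to 315 to 373 FPKM in KO and 489 to 553 FPKM in WT, most of it Olig1, and the 4 of astrocytes to 319 to 385 FPKM in KO and 94.6 to 578 FPKM in WT, most of it Aldoc. Olig2 alone of the oligodendrocyte markers went the other way, with 14.5 to 18.8 FPKM in KO and 2.29 to 4.02 FPKM in WT. Of the astrocyte markers, Gfap had 24.4 to 29.6 FPKM in KO and 75.8 to 80.7 FPKM in WT, and Aqp4 had 2.3 to 2.8 FPKM in KO and 10.6 to 11.2 FPKM in WT. The part of such marker differences in the histone values was not tested.

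Histone proteins package DNA into nucleosomes, with H2A, H2B, H3 and H4 in the core and H1 on the linker. The replication-dependent genes are transcribed mainly in S phase, when new chromatin is built, and lie in clusters. Their mRNAs are the well known exception to polyadenylation in animals: they usually have no introns and end just past a conserved stem-loop in the 3′ UTR, which the stem-loop binding protein SLBP holds and beside which U7 snRNP directs the cut. In bulk RNA, fewer cells in S phase and less RNA per cell cannot be told apart.

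The stem-loop is shown because it defines the 3′ end of these mRNAs and differs between the classes. The letters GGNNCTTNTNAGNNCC were searched on the sense strand of the reference transcripts in GENCODE M21. They were present in 40 of 60 reference transcripts of these genes, from 38 of 55 genes, and in 0.221% of all 141767 transcripts. There were 7 distinct versions. The sites below are on build GRCm38, read 5′ to 3′, with 5 bases on either side in lower case and the stem-loop in capitals.
Hist3h2a (H2A), chr11:58955167-58955192, plus strand: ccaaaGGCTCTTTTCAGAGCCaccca
Hist3h2ba (H2B), chr11:58949344-58949369, plus strand: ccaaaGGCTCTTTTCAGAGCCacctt
Hist1h3b (H3), chr13:23752815-23752840, plus strand: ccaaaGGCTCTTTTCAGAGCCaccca
Hist1h3c (H3), chr13:23745042-23745067, minus strand: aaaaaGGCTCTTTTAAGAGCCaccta
Hist1h4d (H4), chr13:23581945-23581970, plus strand: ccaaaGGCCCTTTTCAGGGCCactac
Hist1h4b (H4), chr13:23757361-23757386, plus strand: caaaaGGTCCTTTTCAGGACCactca
Hist4h4 (H4), chr6:136803993-136804018, minus strand: acaaaGGCCCTTTTCAGGGCCcacaa

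The version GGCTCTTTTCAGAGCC stood in 22 transcripts, 1 of H1, 8 of H2A, 7 of H2B and 6 of H3, and in 0 of H4. The H4 transcripts carried other letters in the stem, with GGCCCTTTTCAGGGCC in 7 of them and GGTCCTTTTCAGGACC in 2. A transcript without the letters is not shown to lack a stem-loop, since 8 of the reference transcripts held the coding sequence alone. That is so for Hist1h3h, on chr13:21717659-21718069 on the plus strand, whose model of 411 bases has the same length as its coding sequence.

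The classes are also close copies of one another. Between genes with a coding sequence of the usual length, the median identity of the coding bases was 97.5% for 11 H2A genes, 97.1% for 11 H2B genes, 97.1% for 10 H3 genes and 93.9% for 11 H4 genes, and the highest in each class was 100%. Of 60 reference transcripts, 50 shared at least 1 stretch of 150 bases, the length of a read, with another gene, and 24 shared over 50% of such stretches. A single read from those stretches cannot be assigned to 1 gene by its own sequence. Its mate may lie outside them, and pairs were not examined. The values of single genes below are therefore uncertain wherever a copy exists. Values at 0 were not confined to such genes: all 10 genes with no shared stretch were listed at 0 in some library, as were 9 of 24 with up to 50% shared and 14 of 21 with more. The 3 sets also differed in level, with a median of the gene means of 2.85 FPKM for the 10, 74.5 FPKM for the 24 and 36.7 FPKM for the 21. The parts of level and of sharing in the zeros were not tested.

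Against the labels, few histone genes were called, as was so for all genes tested, and a gene not called is not shown to be equal. With a mean of at least 1 FPKM over the 6 libraries as the filter, 57 histone genes were tested, and 4 were below it, Hist1h1t, Hist1h2al, Hist1h2ba and Hist2h3b. The gene just inside the filter was Hist1h2ak, an H2A gene with a mean of 1.10 FPKM, and the one just outside was Hist1h2al, also H2A, with 0.813 FPKM. By limma on log2(FPKM + 1), with a Benjamini-Hochberg adjusted p under 0.05 over 12080 genes, 2 of the 57 were called, or 3.51%, against 6.9% of all genes tested. Hist3h2a was lower in KO and Hist1h3h was higher in KO. The median log2 fold change, KO minus WT, was 0.08 over the 57 genes and -0.02 over all genes, with 34 values above 0 and 23 below.

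KO and WT values did not overlap for 4 of the 57 genes, or 7.02%, against 33.3% of all genes tested. Hist1h3h and Hist1h2ab were on the higher side, where the background was 16.9%, and Hist3h2a and Hist3h2ba on the lower side, where it was 16.4%. The 25 tested genes above 0 in every library held 1 of the 2 calls and 1 of the 4 genes without overlap, and the 32 listed at 0 in some library held 1 call and 3 without overlap. The median residual SD of the fit was 1.58 log2 units over the 57 genes and 0.229 over all genes. It was 0.257 for the histone genes above 0 in every library and 2.53 for those listed at 0 in 1 or more.

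**Figure D1:**
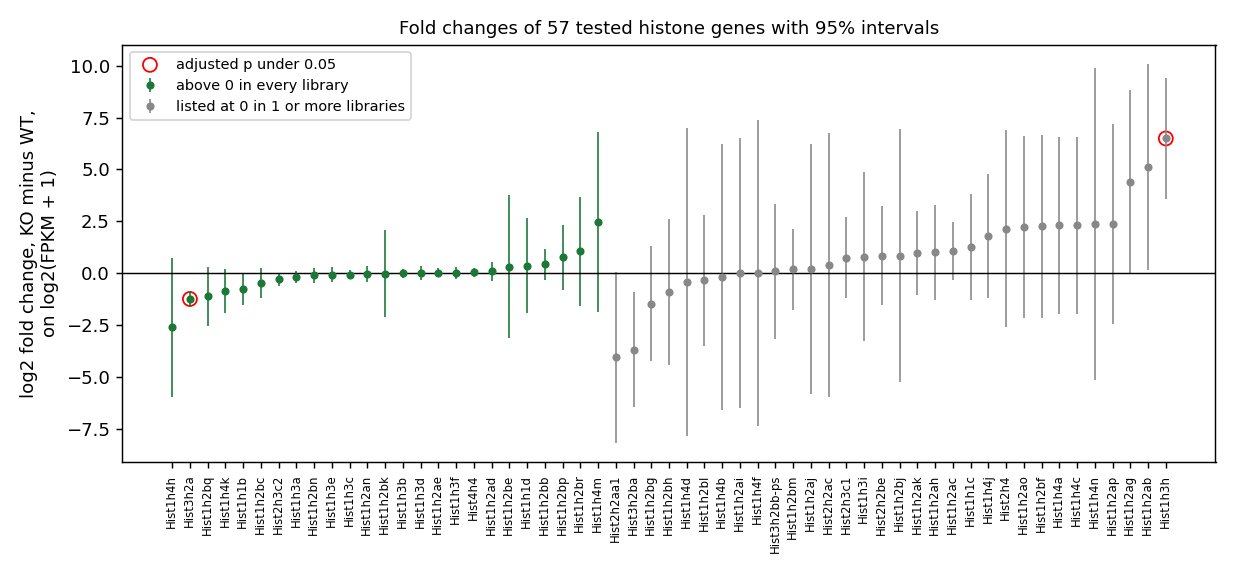
Log2 fold change, KO minus WT, on log2(FPKM + 1) for each of the 57 tested histone genes, with bars for the 95% interval of the limma fit. Green points are genes above 0 in every library, grey points genes listed at 0 in 1 or more, and red rings mark Hist3h2a and Hist1h3h, with an adjusted p under 0.05; the grey intervals are mostly several log2 units wide.

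Hist3h2a encodes a core histone H2A of the small Hist3 cluster on chromosome 11, where its reference transcript covers chr11:58954685-58956830 on the plus strand. It had 21.7, 16.9 and 25.2 FPKM in the KO libraries and 48.7, 52.4 and 53.3 FPKM in the WT libraries. Every KO value was below every WT value, by more than the spread within either group. The means were 21.3 ± 4.13 FPKM in KO and 51.5 ± 2.42 FPKM in WT (SD, n = 3 each). The log2 fold change was -1.25 (SE 0.151, 95% interval -1.62 to -0.88) with a limma adjusted p of 0.0102. With 3 libraries against 3, an exact two-sided permutation test cannot give less than 0.1, and it gave 0.1. The call was kept in 16 of 17 alternative settings, all those that leave out 1 library among them, and was lost with replicate number as a block (adjusted p = 0.0926).

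The transcript model of Hist3h2a is long for a histone gene. It has 1 exon of 2146 bases, and 1643 of them lie past the stem-loop shown above. Its value is therefore the level over this whole model, and reads up to the stem-loop and reads past it cannot be told apart in a value per transcript. A 7-exon isoform of Trim17, a gene for a tripartite motif ubiquitin ligase, begins at the same base, and 28% of the 150-base stretches of the Hist3h2a transcript were shared with Trim17 transcripts. That isoform had 0.105, 2.38 and 0.31 FPKM in KO and 0, 1.7 and 0 FPKM in WT, far below the Hist3h2a values. Trim17 as a gene, with a log2 fold change of 0.24, was not called (adjusted p = 0.732).

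Hist3h2ba, the H2B gene beside it, lies on chr11:58948920-58949533, also on the plus strand. It was listed at 0, 16 and 0 FPKM in KO and had 27.0, 37.8 and 32.8 FPKM in WT. All 3 KO values were again below the 3 WT values. None of its 150-base stretches occurred in another gene. The log2 fold change was -3.69 (SE 1.13) and did not pass the test (limma adjusted p = 0.118), and on leaving out 1 library at a time the adjusted p ranged from 0.00776 to 0.274. The lowest came without KO 2, which leaves only KO libraries listed at 0, so it is not separate support. The other gene of the cluster, the pseudogene Hist3h2bb-ps, was listed at 0, 10.4 and 0 FPKM in KO and at 0, 8.73 and 0 FPKM in WT. Of the protein-coding neighbours, Rnf187 had a log2 fold change of -0.32 (adjusted p = 0.386) and Trim11 one of -0.36 (adjusted p = 0.239), and neither was called.

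The 250 bases before the RefSeq start are shown for Hist3h2a, which was called lower in KO, and for Hist3h2ba beside it, which was not called. A part of these bases in the values was not tested. The windows are on GRCm38.p6, read 5′ to 3′ on the plus strand. Capitals mark CCAAT, the box known for NF-Y. They also mark the TATA box, searched as TATAAA. A further motif in capitals is the octamer ATTTGCAT, known to be bound by POU factors such as OCT1. Each was searched on both strands, so the reverse complement of a motif is in capitals too. The motifs do not overlap one another in these windows.
Hist3h2a, chr11:58954435-58954684: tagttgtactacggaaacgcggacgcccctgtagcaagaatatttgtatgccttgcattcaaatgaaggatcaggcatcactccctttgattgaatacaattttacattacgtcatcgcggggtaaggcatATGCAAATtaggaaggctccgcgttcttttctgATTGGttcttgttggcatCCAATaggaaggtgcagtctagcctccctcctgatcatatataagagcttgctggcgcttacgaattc
Hist3h2ba, chr11:58948661-58948910: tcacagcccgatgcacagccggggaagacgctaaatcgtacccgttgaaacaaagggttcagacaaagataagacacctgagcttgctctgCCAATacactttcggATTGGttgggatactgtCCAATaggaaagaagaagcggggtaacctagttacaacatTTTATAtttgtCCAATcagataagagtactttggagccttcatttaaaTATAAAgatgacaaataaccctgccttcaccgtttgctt

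The Hist3h2a window held 2 CCAAT letters and 1 octamer, and the Hist3h2ba window held 4 CCAAT letters and 2 TATAAA letters. Over the RefSeq windows of 300 bases that matched 53 of the histone genes (54 windows, from 250 bases before to 50 after the start), CCAAT stood in 85.2%, against 37.4% of 32851 windows of all genes. It stood in every window of H1, H2A, H2B and H3 genes and in 27.3% of the H4 windows. TATAAA stood in 57.4% of the histone windows and in 13.6% of all windows. The octamer stood in 6 of 13 H2A windows, in 6 of 16 H2B windows and in 0 of the others, and in 1.74% of all windows. Some H2A and H2B genes are divergent neighbours whose windows overlap and share these letters.

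Hist1h3h encodes the core histone H3 and was the gene called higher in KO. It had 256, 247 and 219 FPKM in the KO libraries and was listed at 0, 0 and 18.3 FPKM in the WT libraries. All 3 KO values were high and all 3 WT values low or at 0. A listed 0 can be a failed estimate, and the fold change and interval below take the zeros as measured. The KO values correspond to 2983, 3115 and 2926 reads of 150 bases, and those of WT to 0, 0 and 273 reads. The log2 fold change was 6.49 (SE 1.18, 95% interval 3.59 to 9.39, limma adjusted p = 0.0333; exact permutation p = 0.1, the smallest possible). Its size depends on the pseudocount, with 8.72 for a pseudocount of 0.1 and 4.87 for one of 5. The call held in 8 of 17 alternatives and was lost on leaving out any library other than WT 3, with an adjusted p between 0.0762 and 0.114. The fit without WT 3, counted among the 8, leaves only WT libraries listed at 0, so it is not separate support.

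Of the 150-base stretches in the Hist1h3h model, 90.5% occurred in another H3 gene. The 250 bases before its start, on the plus strand of GRCm38.p6, are given for comparison with those of the Hist3 pair, with the same capitals, and held 2 CCAAT letters and 1 TATAAA.
Hist1h3h, chr13:21717378-21717627: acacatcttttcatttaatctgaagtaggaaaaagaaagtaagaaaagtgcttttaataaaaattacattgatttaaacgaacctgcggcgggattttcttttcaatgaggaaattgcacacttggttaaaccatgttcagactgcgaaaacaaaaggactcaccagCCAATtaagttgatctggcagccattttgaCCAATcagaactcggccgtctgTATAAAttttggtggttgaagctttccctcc

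Hist1h2ab, an H2A gene, had 218, 180 and 180 FPKM in KO and was listed at 0, 0 and 167 FPKM in WT. Its value in WT 3 was close to those of KO, while WT 1 and WT 2 were at 0. With a log2 fold change of 5.13 it did not pass the test (limma adjusted p = 0.194), and on leaving out 1 library at a time the adjusted p ranged from 0.000163 to 0.365. The lowest came without WT 3, which leaves only WT libraries listed at 0, so it is not separate support. Hist1h2ag, another H2A gene, had the same pattern, with 97.7, 96.7 and 88.1 FPKM in KO and 0, 0 and 93.9 FPKM in WT, but its groups overlapped.

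**Figure D2:**
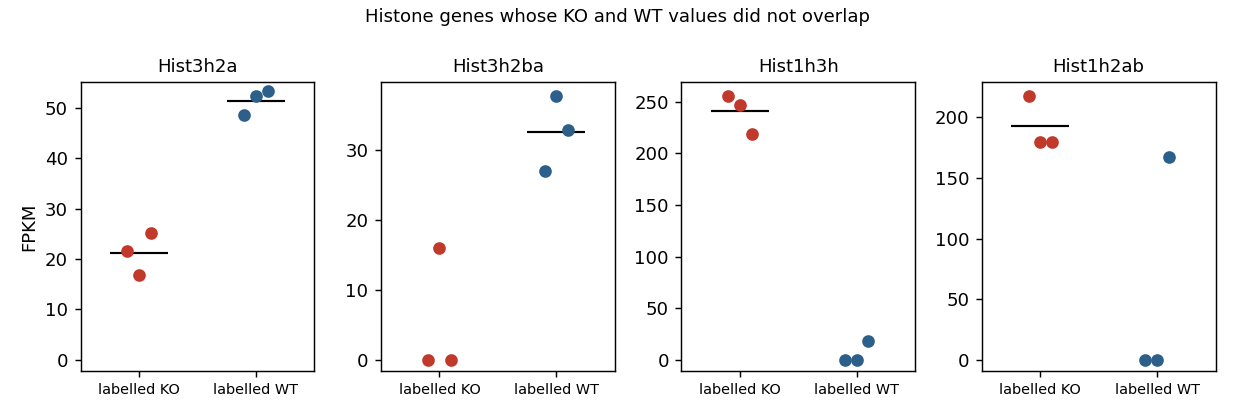
FPKM in each library for the 4 histone genes whose 3 values in KO (left, red) and 3 values in WT (right, blue) did not overlap; the short lines are means, drawn only where no library was listed at 0. Hist3h2a is the gene of the 4 with a value above 0 in all libraries, and Hist1h3h and Hist1h2ab are each at 0 in WT 1 and WT 2.

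The H3 genes that were above 0 in every library varied little. Hist1h3c, with the highest mean of all the histone genes, had 257, 264 and 259 FPKM in KO and 283, 250 and 287 FPKM in WT, a log2 fold change of -0.07 (95% interval -0.29 to 0.15). Hist1h3b had 242, 233 and 212 FPKM in KO and 225, 222 and 247 FPKM in WT. Hist1h3d had 277, 232 and 220 FPKM in KO and 262, 211 and 261 FPKM in WT. The groups overlapped for each of these. Over all 7 such H3 genes, Hist1h3a, Hist1h3e, Hist1h3f and Hist2h3c2 included, the log2 fold changes were between -0.30 and 0.02, and the intervals reached from -0.60 to 0.33, so none covers a change of 1 log2 unit in either direction. The limma adjusted p was between 0.208 and 0.981.

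Other genes were as even. Hist4h4, an H4 gene that stands alone on chromosome 6, had 18.7, 20.2 and 21.8 FPKM in KO (20.3 ± 1.51) and 19.8, 19.1 and 20.3 FPKM in WT (19.7 ± 0.601; SD, n = 3 each). Hist1h2ae, an H2A gene, had 82.4, 75.0 and 87.3 FPKM in KO and 84.5, 78.9 and 79.4 FPKM in WT. The groups overlapped for both genes. Like Hist3h2a, Hist4h4 has a long model of 2863 bases with 2445 past the stem-loop. Of the 9 genes with over 300 bases of model past the stem-loop, 5 were above 0 in every library, as were 11 of the 28 genes with 2 to 169 bases past it.

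A common pattern was all or none. A histone gene was listed at exactly 0 in 1 or more libraries for 36 of the 61 genes, and 27 of these had at least 10 FPKM in another library, 18 of them at least 50 FPKM. Among tested genes, a 0 in some library was listed for 56.1% of the histone genes and for 4.09% of all genes, and a 0 beside a value of at least 10 FPKM for 47.4% and 1.82%. A true level below 3 reads would be worth at most 0.257 FPKM on a transcript as short as that of Hist1h3h, so a level of 10 FPKM elsewhere is far above it. An exact 0 in such a table can be a failed estimate, so it was read as listed at 0, not as absence of the RNA.

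The zeros fell mostly on genes whose reference transcripts all have 1 exon, which were also most of the genes. There were 94 zeros in all, 87 of them in these 50 of the 61 genes and 7 in the other 11. The 7 were all in the 6 genes with assembled isoforms only. The 5 genes with a reference transcript of 2 or more exons had none. By library, the zeros were 14, 10 and 16 in KO and 13, 25 and 16 in WT, so that WT 2 stood apart and the other libraries of the groups overlapped. In WT 2, 10 of the 16 H2A genes and 7 of the 12 H4 genes were at 0, against 2 of the 11 H3 genes. There were 8 genes at 0 in WT 2 alone: Hist1h2ah, Hist1h2ao, Hist1h2ap, Hist1h2bf, Hist1h4a, Hist1h4c, Hist1h4j and Hist2h4.

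**Figure D3:**
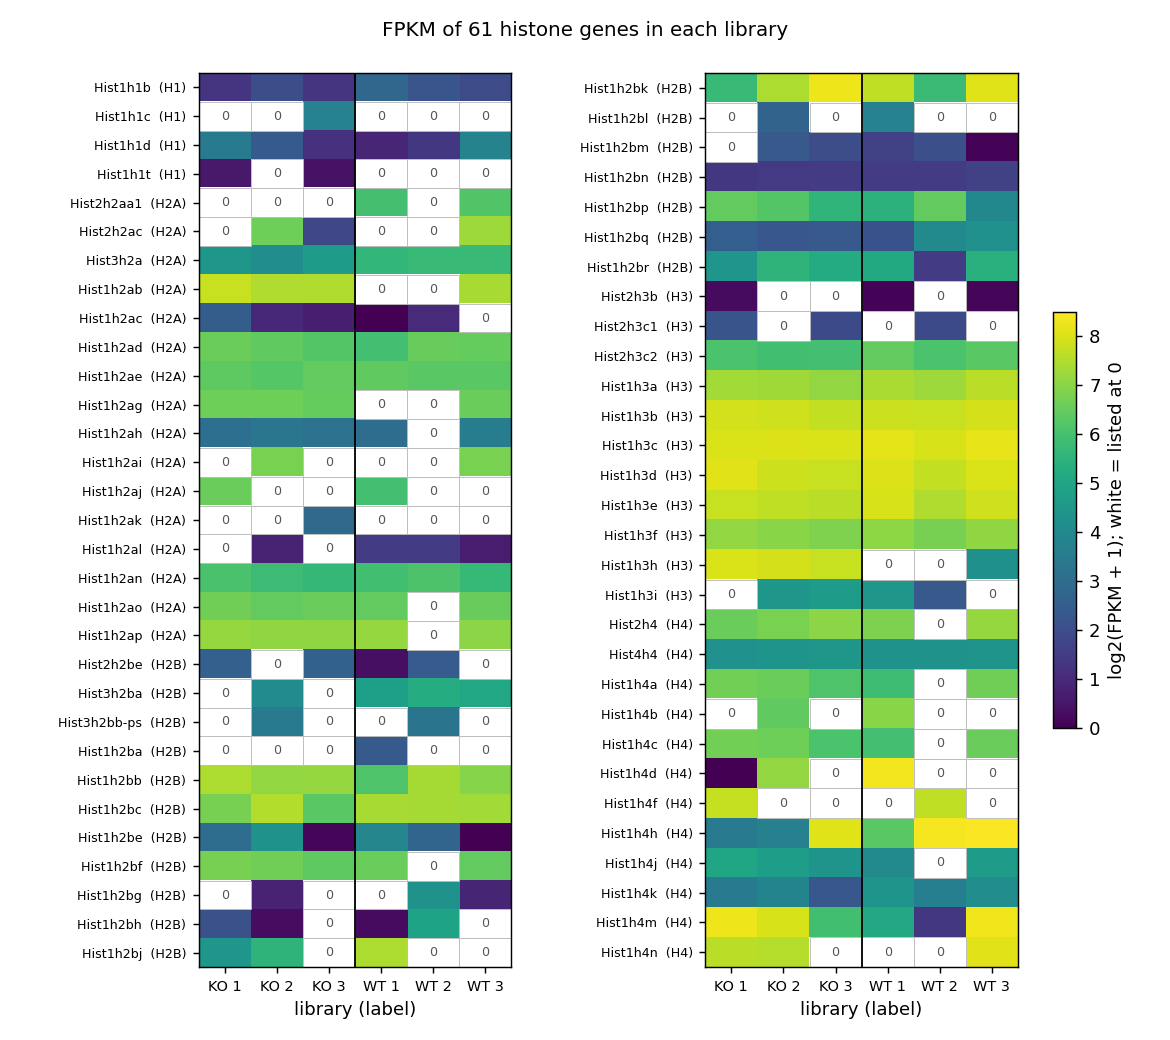
Level of each of the 61 histone genes, in rows by class, in each library, with KO left of WT; colour is log2(FPKM + 1) and white cells with a 0 are values listed at exactly 0. The H3 genes Hist1h3a to Hist1h3f are even across libraries, while H2A and H4 genes alternate between high values and 0, most often in WT 2.

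Where such a gene was above 0, its values were often close. Of 26 genes with a 0, at least 10 FPKM elsewhere and at least 2 values above 0, the highest was within 1.5 times the lowest nonzero value for 11. Hist1h2ap, an H2A gene, had 141, 134 and 135 FPKM in KO and 143, 0 and 130 FPKM in WT. Hist1h2ai, also H2A, had 0, 110 and 0 FPKM in KO and 0, 0 and 110 FPKM in WT. Hist1h4f, an H4 gene, had 214, 0 and 0 FPKM in KO and 0, 204 and 0 FPKM in WT. In each of these the groups overlapped, with both high values and zeros in the KO and in the WT libraries, or a 0 in WT 2 alone. Hist2h2aa1, an H2A gene of the chromosome 3 cluster, was listed at 0 in all 3 KO libraries and at 62.6, 0 and 72.0 FPKM in WT, so no fold is given.

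For 2 H4 genes an assembled isoform covered the same exons. Hist1h4d was listed at 0.000281, 138 and 0 FPKM in KO and at 328, 0 and 0 FPKM in WT. Hist1h4b was listed at 0, 85.4 and 0 FPKM in KO and at 127, 0 and 0 FPKM in WT. An assembled isoform of 2 exons and 382 bases, on chr13:23581548-23757348, runs from Hist1h4d to Hist1h4b, and the table gives it the name Gm11338. It had 428, 446 and 326 FPKM in KO and 0, 0 and 333 FPKM in WT. The 3 values summed to 428, 669 and 326 FPKM in KO and 455, 0 and 333 FPKM in WT, so that the sum was at 0 in WT 2 alone. Whether it is an RNA or an assembly of reads from like sequences was not tested.

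**Figure D4:**
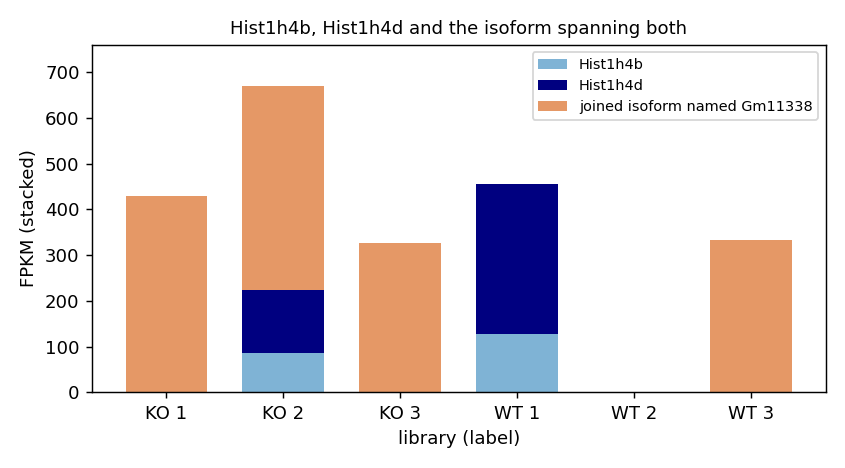
Stacked FPKM of the H4 genes Hist1h4b and Hist1h4d and of the assembled isoform that spans them, in each library, with KO left of WT. WT 1 has the genes' own values, KO 1, KO 3 and WT 3 nearly only the joined isoform, KO 2 both, and WT 2 none.

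The H2B gene Hist1h2bp alternated between its own reference transcripts. Its 1-exon transcript had 86.0, 0 and 0 FPKM in KO and 43.2, 72.3 and 5.57 FPKM in WT. Its 2-exon transcript had 0.149, 63.5 and 46.0 FPKM in KO and 0.274, 0 and 0.313 FPKM in WT. Summed with an assembled isoform, the gene had 86.1, 73.6 and 46.0 FPKM in KO and 43.5, 86.6 and 14.8 FPKM in WT, above 0 in every library, with overlapping groups.

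The other H2B genes with a spliced reference transcript also had no zeros and were not called. Hist1h2bc had 107, 182 and 79.6 FPKM in KO and 168, 164 and 160 FPKM in WT (log2 fold change -0.50, limma adjusted p = 0.36). Hist1h2bq had 4.78, 3.94 and 4.13 FPKM in KO and 3.43, 15.7 and 18.9 FPKM in WT (log2 fold change -1.11, limma adjusted p = 0.298), with an adjusted p from 0.0148, without WT 1, to 0.518, without WT 3, on leaving out 1 library. Their KO and WT values overlapped. Hist1h2be ranged from 0.116 to 19.8 FPKM in KO and from 0.00156 to 13.6 FPKM in WT. Hist1h2br ranged from 20.7 to 45.1 FPKM in KO and from 1.88 to 41.1 FPKM in WT. Both varied within the groups as much as between them.

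The highest H2B mean was that of Hist1h2bk, with 53.0, 173 and 312 FPKM in KO and 204, 54.9 and 268 FPKM in WT. Its reference transcript alone had 41, 155 and 212 FPKM in KO and 204, 0 and 237 FPKM in WT. An assembled isoform in the sum ends at the last base of Hist1h2bj, a neighbouring H2B gene. It had 11.2, 5.58 and 99.6 FPKM in KO and 0, 53.9 and 29.7 FPKM in WT. Hist1h2bb followed Hist1h2bc, with 176, 137 and 142 FPKM in KO and 70.7, 161 and 124 FPKM in WT. The KO and WT values of Hist1h2bk and of Hist1h2bb overlapped.

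Among H4 genes the highest means belonged to Hist1h4h, Hist1h4m and Hist1h4n, and each spread widely within both groups. Hist1h4h had 10.5, 11.9 and 271 FPKM in KO and 78.6, 332 and 346 FPKM in WT. Hist1h4m had 309, 250 and 59.6 FPKM in KO and 34.3, 1.57 and 315 FPKM in WT. These sums of Hist1h4h and Hist1h4m include assembled isoforms. The reference transcript alone had 0, 9.68 and 269 FPKM in KO and 57, 331 and 344 FPKM in WT for Hist1h4h. For Hist1h4m it had 307, 248 and 24.7 FPKM in KO and 0, 0 and 313 FPKM in WT. Hist1h4n had 198, 188 and 0 FPKM in KO and 0, 0 and 277 FPKM in WT. Hist1h4m and Hist1h4n were both high in KO 1, KO 2 and WT 3 and lower or at 0 in KO 3, WT 1 and WT 2. Hist1h4h differed, with its lowest values in KO 1 and KO 2. Of read-length stretches, 85.8% in the Hist1h4m reference transcript were shared, with Hist1h4n only. The share was 77.2% in the Hist1h4n reference transcript, with Hist1h4m only. The part of this sharing in their like pattern was not tested. In none of the 3 genes did the groups separate.

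The linker histone genes with a value were low in this table, and Hist1h1e was not among them. Hist1h1d had 10.6, 4.33 and 1.31 FPKM in KO and 0.882, 1.61 and 12.9 FPKM in WT. Hist1h1b had 1.5, 3.1 and 1.51 FPKM in KO and 6.07, 3.71 and 2.88 FPKM in WT. Both values came from assembled isoforms only, and the groups overlapped. Hist1h1c, whose stem-loop lies 840 bases before the end of its model, was listed at 0, 0 and 12.6 FPKM in KO and at 0 in all 3 WT libraries. None was called.

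Because the copies of a class share reads, the FPKM of each class was summed per library. H3 summed to 1619, 1540 and 1450 FPKM in KO and 1432, 1196 and 1460 FPKM in WT. H2B summed to 593, 817 and 713 FPKM in KO and 856, 595 and 749 FPKM in WT. H1 summed to 12.6, 7.43 and 15.7 FPKM in KO and 6.96, 5.32 and 15.7 FPKM in WT. In each of these classes the KO and WT sums overlapped.

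H2A summed to 927, 950 and 749 FPKM in KO and 618, 295 and 1102 FPKM in WT. H4 summed to 1090, 1034 and 644 FPKM in KO and 853, 569 and 1336 FPKM in WT. In both classes WT 2, the library with the most zeros, was lowest and WT 3 highest. The difference of the H2A means, KO minus WT, was 203 FPKM with all libraries and 14.9 FPKM without WT 2, and that of H4 was 3.51 FPKM and -172 FPKM. With the joined isoform added, H4 summed to 1517, 1480 and 970 FPKM in KO and 853, 569 and 1669 FPKM in WT. The 61 genes held 1.63%, 1.72% and 1.45% of all FPKM in KO and 1.48%, 0.97% and 1.82% in WT.

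The sums were also taken over the 25 genes above 0 in every library, a choice that itself removes the zeros. Some of the 25, such as Hist1h2bk, Hist1h4h and Hist1h4m, had a reference transcript at 0 in some library and were above 0 there through assembled isoforms. The sums over the 25 were 2442, 2444 and 2420 FPKM in KO and 2364, 2343 and 3056 FPKM in WT. Over the 7 H3 genes among them, the sums were 1360, 1271 and 1203 FPKM in KO and 1410, 1189 and 1442 FPKM in WT, and the H3 difference, KO minus WT, was -69.1 FPKM in place of 174 FPKM over all 11 H3 genes, which include Hist1h3h. The difference over all 11 was 90.5 FPKM without WT 2. The groups overlapped over the 7 and over the 11 genes.

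**Figure D5:**
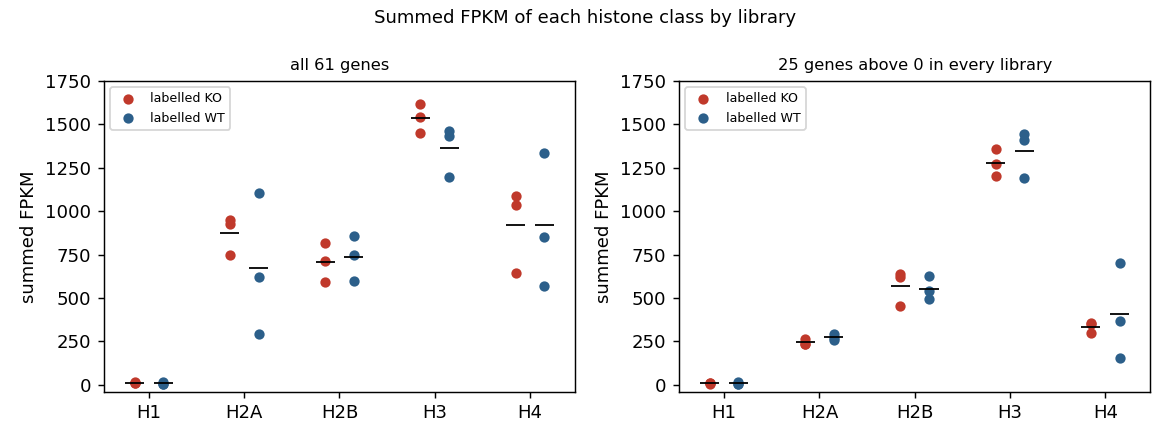
Summed FPKM per histone class in each library, for all 61 genes (left panel) and for the 25 genes above 0 in every library (right panel); points are libraries, red for KO and blue for WT, and short lines are group means. KO and WT overlap in the H1, H2A, H2B, H3 and H4 sums of all 61 genes, and the H2A points of WT, 295 to 1102, are 255 to 292 without the genes listed at 0, while the H4 points of WT, 569 to 1336, are 153 to 699.

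Factors that make and process histone mRNA were set beside the genes themselves. Of 22 tested genes for histone transcription and 3′ processing, 0 passed by limma in either direction, against 6.9% of all genes, and 2, Casp8ap2 and Npat, had an unadjusted p under 0.05, against 24.6% of all genes. The median log2 fold change was 0.04, beside -0.02 over all genes. Npat, a coactivator that cyclin E-CDK2 phosphorylates at histone loci, had 8.23, 9.14 and 8.40 FPKM in KO and 10.8, 11.1 and 10.1 FPKM in WT (log2 fold change -0.28, limma adjusted p = 0.155). Casp8ap2, which works in histone mRNA processing, had 4.98, 4.46 and 5.36 FPKM in KO and 3.5, 3.6 and 2.93 FPKM in WT (log2 fold change 0.45, limma adjusted p = 0.115). Slbp, the stem-loop binding protein, had 17.9, 7.25 and 16.6 FPKM in KO and 6.64, 13 and 14.2 FPKM in WT, with overlapping groups.

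Several histone chaperones, which carry histones to DNA, were higher in KO. Of 29 tested genes of the list, 5 were higher in KO and 0 lower by limma (12 and 0 at an unadjusted p under 0.05), with a median log2 fold change of 0.19; over all genes, 3.65% were called higher and 3.25% lower, and 12.7% and 11.9% had an unadjusted p under 0.05 in those directions. Mcm2, a helicase subunit that also binds H3 and H4, had 65.1, 59.8 and 63.3 FPKM in KO and 26.8, 30.3 and 25.7 FPKM in WT (log2 fold change 1.16, limma adjusted p = 0.00375). Nasp, which binds soluble histones, had 21.8, 23.0 and 19.2 FPKM in KO and 13.1, 14.3 and 13 FPKM in WT (log2 fold change 0.62, limma adjusted p = 0.0248). The others were Ssrp1, a FACT subunit (0.55), Asf1b, an H3-H4 chaperone (0.75), and Chaf1b, a subunit of chromatin assembly factor 1 (0.68), as log2 fold changes. For each of the 5, every KO value was above every WT value, which was so for 16.9% of all genes tested. The 5 were picked by calls on these same values, so it is not separate support. The count rests on single libraries, with 1 gene called on leaving out WT 1, KO 1 or KO 3, 2 on leaving out WT 3 or KO 2, and 8 on leaving out WT 2.

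Replacement histone variants are made outside S phase as well, mostly from mRNAs with poly(A) tails. Of 12 tested, 0 were higher and 1 lower in KO by limma (1 and 1 at an unadjusted p under 0.05), with a median log2 fold change of 0.18. The shares over all genes are those given for the chaperones, and 1 gene of 12 is no result about the list. H1f0, the linker histone linked to cells that leave the cycle, had 53.4, 53.6 and 54.6 FPKM in KO and 105, 142 and 133 FPKM in WT (log2 fold change -1.21, SE 0.126, limma adjusted p = 0.00759). The KO values lay close together and all below the WT values. H2afx, the 1-exon gene for the variant H2A.X, was listed at 0, 59.8 and 67.6 FPKM in KO and at 0 in all 3 WT libraries, so it shared the pattern of zeros and no fold is given.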

How the data were processed

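RNA was measured in 3 libraries labelled KO and 3 labelled WT. The authors deposited FPKM per isoform, and coverage columns whose signal is mean reads per base, which gave the depth. Per the submitters' processing notes, cutadapt, FastQC, Bowtie2, TopHat2 and StringTie were used; versions and the genome build are not given in the sources used here. Columns lettered NT were matched to WT by elimination and number, and 0 value columns were left unused. Table coordinates are printed as deposited.

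Of 125793 isoforms, 95506 were kept (reference transcripts, and assembled isoforms overlapping exons of a named gene) and summed per symbol. Tests used limma 3.58.1 in R 4.3.3 on log2(FPKM + 1), with a mean-variance trend, for 12080 genes with a mean of at least 1 FPKM, adjusted over all of them; fold changes on this scale understate those of low genes. Python 3.11.15 with scipy 1.17.1, pandas 2.3.3 and numpy 2.4.6 made the tables, and matplotlib 3.10.9 the figures. The procedure was tested on simulated data.

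The histone genes and the lists were chosen with earlier results of these data known. Genes were named by rule: every called histone gene, the 3 with the highest mean in each class, those whose groups did not overlap, those with a spliced reference transcript, those beside the filter, up to 4 called genes of each other list or the 2 with the smallest p, and Vim. Other genes named were chosen after their values were seen. Reads are equivalents of 150 bases from the coverage. Stem-loops came from GENCODE M21, promoters from RefSeq (61 of 62 symbols matched a gene). The alternatives changed the pseudocount (0.1 or 5), the filter (none or 5 FPKM), the scaling (median-ratio or quantile), the variance model (robust, or without the trend), the isoforms kept, the replicate block, or left out 1 library. The class sums under other isoform sets, over genes above 0 and without each library, and the lists' alternatives, were added after seeing the data. Same-numbered KO and WT libraries did not deviate together.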

Additional observations from a re-analysis of the deposited data

How the results depend on the processing

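The count of 2 histone genes called became 1, Hist3h2a, with a pseudocount of 0.1, with no filter or with reference transcripts only, and 1 to 4 on leaving out a library. The 833 genes called overall became 235 with reference transcripts only, 542 with every class code, and 286 to 782 on leaving out a library. The 5 called chaperones became 3 with no filter, 8 with median-ratio or quantile scaling, 1 with reference transcripts only, and 1 to 8 on leaving out a library; the 1 called variant became 2 with a filter of 5 FPKM or robust variance, and 1 to 2 on leaving out a library. With replicate number as a block, which shares only a number here (correlations of deviations 0.0119, -0.00306 and 0.065, with 2 of 6 libraries correlating best with their own number), 15 genes, 0 histone genes, 0 chaperones and 0 variants were called by limma, against 2435, 7, 10 and 3 at an unadjusted p under 0.05. The median log2 fold change of the histone genes was -0.00903 to 0.38 on leaving out a library, and the H3 sum differed by -69.1 FPKM over genes above 0 in every library. Signs turned for uncalled genes: under quantile scaling, Hist1h2bk (0.0457), Hist1h3b (0.053), Hist1h3c (0.0614) and Hist1h3d (0.0896), and with reference transcripts only Hist1h2bk (1.61). On leaving out a library the log2 fold changes ranged from 0 to 1.88 for Hist1h1c, -0.22 to 1.24 for Hist1h1d, -0.10 to 0.18 for Hist1h2ad, 0 to 1.46 for Hist1h2ak, -0.80 to 1.49 for Hist1h2be, -0.71 to 0.68 for Hist1h2bk, -0.21 to 1.73 for Hist1h2br, -0.0577 to 0.0387 for Hist1h3b and -0.112 to 0.0589 for Hist1h3d. The cause of these shifts was not tested. With 3 libraries a group, the number of libraries limits the precision, and how small a change of these genes could be detected was not tested.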
